A study of Mus musculus with 6 samples.

Results

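The cytosolic chaperonin TRiC, also called CCT, is a complex of 8 related subunits encoded by Tcp1 (alpha), Cct2 (beta), Cct3 (gamma), Cct4 (delta), Cct5 (epsilon), Cct6a (zeta), Cct7 (eta) and Cct8 (theta). The members were taken by gene symbol, and all 8 were found among the 17920 genes listed, each as a single row. To ask whether the transcripts of this complex move together when Ybx1 is reduced, 3 control (WT) and 3 Ybx1 knockdown (KD) libraries of mRNA from mouse E13.5 cortical cells were compared. In both groups the dissociated cortical cells were grown in culture, infected with a pLKO.1-Puro lentivirus and selected with puromycin. The virus carried a control hairpin (shCtrl) in WT and a hairpin against Ybx1 (shYbx1) in KD, and which of the study's hairpins the KD libraries carried is not stated. The data columns call the controls Ctrl, the labels give the tissue as brain, and the design text calls the loss of Ybx1 a deletion where the methods describe a knockdown. No sort of the cells is described, and in such bulk samples fewer cells of a type and less RNA per cell cannot be told apart.

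TRiC stacks a pair of rings back to back, and each ring holds every subunit exactly once, so the finished complex holds equal numbers of the subunits. It closes over unfolded proteins with the energy of ATP. Actin and tubulin are its best known substrates, and proteins with WD repeats, such as G protein beta subunits and activators of the anaphase-promoting complex, also depend on it. Prefoldin hands new actin and tubulin chains to it, phosducin-like proteins assist it, and tubulin folding cofactors take over the tubulin it releases. In the ring the order is Tcp1, Cct4, Cct2, Cct5, Cct7, Cct8, Cct6a and Cct3, so Cct7 and Cct8 are neighbours. In the developing cortex, progenitor division and axon growth both draw on newly folded tubulin and actin.

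Total depth lay between 16294635 and 16497505 estimated counts in a library. Ybx1, which the hairpin targets, had a mean of 629 ± 21.0 CPM in WT against 116 ± 36.8 CPM in KD (SD, n = 3 libraries per group), without overlap. CPM are counts per 1000000 after TMM scaling of the library sizes. The defining genes of radial glia and of neurons were present, with 8 of 8 and 9 of 9 listed markers above the filter on low counts. Summed TPM, a level per transcript length, reached at most 9.71 for microglia, 2.70 for endothelial, 9.25 for pericyte and fibroblast and 15.5 for erythroid markers in any library. Both replicate 2 libraries stood apart with 3 counts of the Y-linked gene Eif2s3y, against 405 to 693 in the other libraries.

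The 8 genes lie on 8 different chromosomes of GRCm38. In the RefSeq annotation they span 17:12916329-12925067 (Tcp1, plus strand), 10:117050997-117063852 (Cct2, minus), 3:88297135-88321766 (Cct3, plus), 11:22990593-23003336 (Cct4, plus), 15:31590800-31601846 (Cct5, minus), 5:129787356-129846443 (Cct6a, plus), 6:85451505-85468477 (Cct7, plus) and 16:87483325-87495869 (Cct8, minus). In GENCODE the 7 members with an annotated coding transcript encode proteins of 535 (Cct2) to 556 (Tcp1) residues, so the subunits are close to one another in size. Some exons of 4 members overlap a protein-coding gene on the other strand, Mrpl18 and Acat3 at Tcp1, Psph at Cct6a, Pradc1 at Cct7 and Usp16 at Cct8. Whether the counting used strand is not stated. The overlaps cover 141 and 571 of 5030 exonic bases at Tcp1, 452 of 3620 at Cct6a, 214 of 6778 at Cct7 and 192 of 3088 at Cct8, and reads there cannot be told apart without strand. Pradc1 itself had 5.97 ± 0.384 CPM in WT against 5.43 ± 0.808 CPM in KD (SD, n = 3 libraries per group; adjusted P = 0.533, edgeR). Usp16, the partner of Cct8, was at 33.2, 33.3 and 32.9 CPM in WT and at 33.4, 35.7 and 37.1 CPM in KD, so that its KD libraries lay above its WT libraries, as those of Cct8 did, with a log2 fold change of 0.10 that did not pass (adjusted P = 0.288, edgeR). In KD replicates 1 and 3 both genes had fractional counts (555.11 and 612.24 for Usp16, 3671.89 and 3663.76 for Cct8) whose fractions add up to whole reads. The part of shared reads in the difference of Cct8 was not tested.

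Ybx1 belongs to the Y box proteins, which are named after a promoter element, the Y box, whose core is the inverted CCAAT sequence ATTGG. The promoters are shown because the subunits differ in how many of these elements they hold, and no relation between the element and the level in KD was tested. The paper reports Ybx1 protein mainly in the cytoplasm of cultured cortical progenitor cells. RefSeq promoter windows on GRCm38.p6 matched 7 of the 8 members and Cct4 had no entry. In the 250 bases before the start, searched on both strands, the Y box core was found 3 times at Cct7, 2 times at Cct3, 2 times at Cct6a and 1 time at Tcp1. No match was found in the windows of Cct2, Cct5 and Cct8. Of all 32851 windows of this length, 33.8% hold at least 1 match, 10.1% at least 2 and 2.79% at least 3. The windows of Cct7 (chr6:85451255-85451504, plus strand), Cct3 (chr3:88296885-88297134, plus), Cct6a (chr5:129787106-129787355, plus) and Cct8 (chr16:87495870-87496119, minus) read as follows, 5′ to 3′ towards the start, with the Y box core or its reverse complement in capitals.
Cct7: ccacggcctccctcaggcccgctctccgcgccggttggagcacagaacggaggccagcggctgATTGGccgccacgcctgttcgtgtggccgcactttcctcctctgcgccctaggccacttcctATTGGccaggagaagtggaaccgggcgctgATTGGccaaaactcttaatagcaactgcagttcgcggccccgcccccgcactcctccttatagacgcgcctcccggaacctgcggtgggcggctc
Cct3: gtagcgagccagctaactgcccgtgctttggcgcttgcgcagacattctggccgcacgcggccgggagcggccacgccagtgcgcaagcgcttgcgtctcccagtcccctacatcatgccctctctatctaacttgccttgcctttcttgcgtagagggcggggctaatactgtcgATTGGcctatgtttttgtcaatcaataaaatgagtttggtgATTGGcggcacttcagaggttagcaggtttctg
Cct6a: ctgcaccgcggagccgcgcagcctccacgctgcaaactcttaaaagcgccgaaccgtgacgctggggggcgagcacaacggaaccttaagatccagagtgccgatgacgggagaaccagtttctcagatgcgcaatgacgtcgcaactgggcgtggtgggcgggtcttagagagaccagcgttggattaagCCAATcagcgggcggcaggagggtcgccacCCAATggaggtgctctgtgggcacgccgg
Cct8: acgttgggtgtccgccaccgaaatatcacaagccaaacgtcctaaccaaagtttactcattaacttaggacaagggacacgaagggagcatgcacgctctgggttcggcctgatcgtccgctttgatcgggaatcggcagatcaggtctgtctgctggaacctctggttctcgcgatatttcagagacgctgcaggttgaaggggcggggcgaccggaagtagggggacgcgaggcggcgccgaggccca
At Tcp1 the match begins 132 bases before the start. At Cct7 the matches begin 187, 125 and 95 bases before the start, at Cct3 74 and 33 bases before it, and at Cct6a 59 and 29 bases before it. Other elements were searched in the same windows. The GC box GGGCGG was found at all 7 members with a window and in 8 of their 9 windows, against 32.7% of all windows. The second window of Cct5 held none. The ETS element CCGGAAGT was found at Cct8 alone, 37 bases before the start, against 2.88%. The heat-shock element core GAANNTTC was found in 1 of the 2 windows of Cct2 and at no other member, against 6.69%. The E box CACGTG and the CRE TGACGTCA were found at none, against 6.02% and 1.55% of all windows, and no match of 1 element overlapped a match of another. A match of letters is not a binding site, and binding was not measured in these libraries.

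All 8 subunit genes passed the filter on low counts, with 2604 to 5838 estimated counts in a library, so that counting error alone is 1.31% to 1.96% of a value. They did not all move in the same direction. Cct4 and Cct7 were lower in KD, Cct8 was higher, and the fitted change of the other 5 was at most 2.59% (Cct2). Tested by quasi-likelihood in edgeR, and adjusted after Benjamini-Hochberg over 13669 genes, 1 member rose and 2 fell, or 37.5% of the 8. Of all genes tested, 24.0% passed the same threshold, 1646 higher and 1631 lower. Of these calls 50.2% were higher, and on the TPM scale, tested with limma, 65.9% were. The same 3 members were those whose KD and WT libraries did not overlap, which was so for 41.6% of all genes tested.

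Cct7, one of the subunits with a low affinity for ATP, was at 236, 234 and 218 CPM in WT replicates 1, 2 and 3 and at 202, 204 and 199.5 CPM in KD. No KD library reached the lowest WT library, and the KD values were close to one another. It fell by 0.19 on the log2 scale (SE 0.05, adjusted P = 0.0223, edgeR), which is a level of 0.879 times WT.
Cct4, one of the subunits with a high affinity for ATP, was at 186, 191 and 180.1 CPM in WT and at 157, 168 and 166 CPM in KD. Again the groups did not overlap, and KD replicate 1 was the lowest library. It fell by 0.18 on the log2 scale (SE 0.05, adjusted P = 0.0275, edgeR), to 0.882 times WT.
Cct8, which sits next to Cct7 in the ring, went the other way. It was at 206, 207 and 189 CPM in WT and at 221, 233 and 222 CPM in KD. The lowest KD library was above the highest WT library, and the log2 fold change was 0.17 (SE 0.05, adjusted P = 0.0459, edgeR), or 1.12 times WT. The counts of Cct4 were whole numbers in every library, those of Cct7 in 5 and those of Cct8 in 4 of 6. A fractional count marks reads that the quantification divided between genes.

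**Figure D1:**
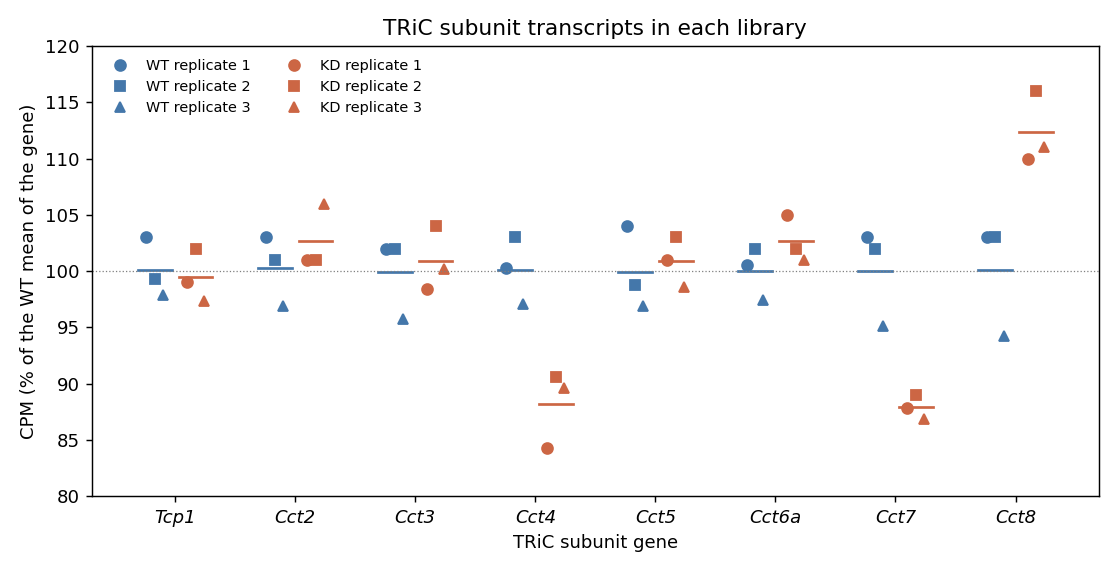
Level of each TRiC subunit transcript in each library, as CPM in percent of the WT mean of the same gene, with the 3 WT libraries in blue, the 3 KD libraries in orange and a line at each group mean; the vertical axis starts at 80%. The KD libraries of Cct4 (84.3% to 90.6%) and Cct7 (86.9% to 89.0%) lie below all WT libraries and those of Cct8 (110.0% to 116%) above them, while the groups overlap for the other 5 subunits.

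These 3 calls are close to the threshold in the fits without the replicate block, and leaving out any 1 library lost at least 1 of them. With WT replicate 1, WT replicate 2, KD replicate 1, KD replicate 2 or KD replicate 3 left out, none of the 3 passed, and without WT replicate 3 Cct4 and Cct7 passed but Cct8 did not. In the fits where none passed, 11.4% to 18.5% of all genes did, and without WT replicate 3 it was 23.1%, against 24.0% with all libraries. The fold changes of the 3 members moved little. Over the fits without 1 library they lay between -0.20 and -0.15 for Cct4, between -0.22 and -0.17 for Cct7 and between 0.13 and 0.19 for Cct8. Without both replicate 2 libraries, the pair that stood apart, none of the 3 passed (-0.18 for Cct4, -0.18 for Cct7 and 0.16 for Cct8; adjusted P of 0.191, 0.196 and 0.237), and the count over all genes fell to 135 higher and 93 lower. On TPM, tested with limma, Cct4 and Cct7 were at -0.13 and did not pass (adjusted P of 0.0659 and 0.0612). The fits above are unpaired. Libraries of equal replicate number, however, deviated alike from their group means over genes (correlations of 0.351, 0.32 and 0.178). When the replicate number was fitted as a block, the same 3 members passed, with adjusted P values of 0.00881, 0.00606 and 0.0127 (edgeR), where 36.6% of all genes did.

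The other 5 subunits overlapped between the groups. Cct2 was at 218, 213 and 206 CPM in WT and 214, 215 and 225 CPM in KD, with a log2 fold change of 0.04 (adjusted P = 0.598, edgeR). Cct6a, the zeta subunit, was at 296, 301 and 287 CPM in WT and 309, 299 and 298 CPM in KD (0.04, adjusted P = 0.571, edgeR). Neither set of libraries stood above the other. Cct3 was at 245, 244 and 229 CPM in WT and 235, 249 and 239 CPM in KD (0.01, adjusted P = 0.859, edgeR). Cct5, which is mutated in a human sensory neuropathy, was at 277, 263 and 258 CPM in WT and 270.0, 274 and 262 CPM in KD (0.01, adjusted P = 0.851, edgeR). For these 2 genes the order of the libraries was mixed. Tcp1, the founding member of the family, was at 354, 342 and 337 CPM in WT and 341, 351 and 335 CPM in KD (-0.01, adjusted P = 0.905, edgeR), and each of its counts was fractional. The 95% intervals of the 5 log2 fold changes reached from -0.11 at the lowest (Tcp1) to 0.14 at the highest (Cct2), and thus ended short of the fitted fold changes of Cct4, Cct7 and Cct8.

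**Figure D2:**
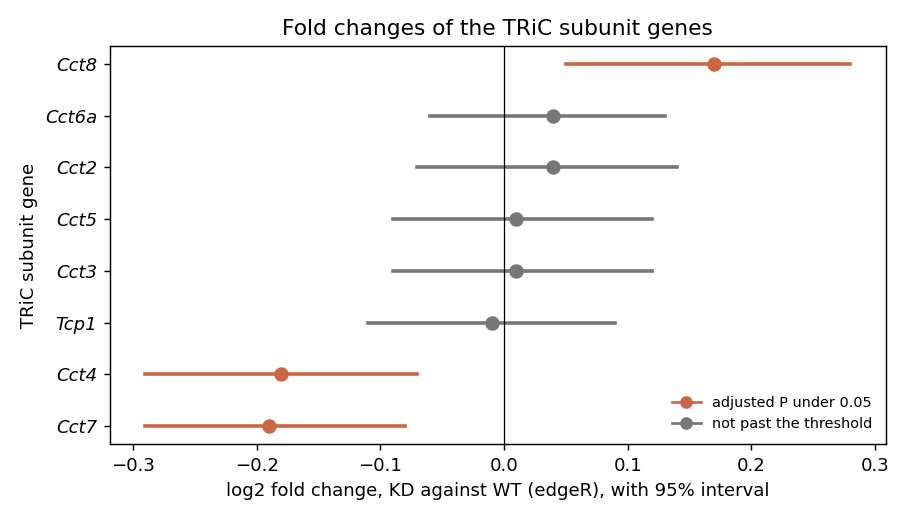
Log2 fold change of each TRiC subunit gene in KD against WT from edgeR, with its 95% interval as a bar; orange marks an adjusted P under 0.05. Cct7 and Cct4 lie to the left of 0, Cct8 to the right, and the 5 grey intervals include 0.

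The median log2 fold change over the 8 subunits was 0.01, beside -0.00 over all genes tested, and the median size of the change, regardless of sign, was 0.04 beside 0.16. As a group they hardly moved, for the summed level of the 8 transcripts was 2018, 1994 and 1904 CPM in WT and 1948, 1994 and 1948 CPM in KD, and the groups overlapped. On the TPM scale the sum was 2106 ± 45.8 in WT and 2175 ± 55.1 in KD (SD, n = 3 libraries per group), again with overlap. The direction of the fold changes of Tcp1, Cct3 and Cct5 depends on the scaling, since total counts turned Tcp1 to 0.01 and the upper quartile turned Cct3 and Cct5 to -0.01.

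Levels can be set side by side only per length, so the order of the subunits was read from TPM. In WT the means were 330.2 (Cct5), 311 (Cct6a), 311 (Tcp1), 285 (Cct3), 247 (Cct2), 220.4 (Cct4), 211 (Cct7) and 189.9 TPM (Cct8). The highest transcript level was 1.74 times the lowest. The equal number of subunits in the complex refers to protein, which was not measured in these libraries. In this order the libraries of Cct6a and Tcp1 overlapped, as did those of Cct4 and Cct7, and each other pair of neighbours was apart in all 3 WT libraries. In KD the means were 346 (Cct5), 331 (Cct6a), 320.2 (Tcp1), 299 (Cct3), 263 (Cct2), 221 (Cct8), 202 (Cct4) and 193 TPM (Cct7). Cct8 was the scarcest subunit transcript in each WT library and came sixth, above Cct4 and Cct7, in each KD library.

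**Figure D3:**
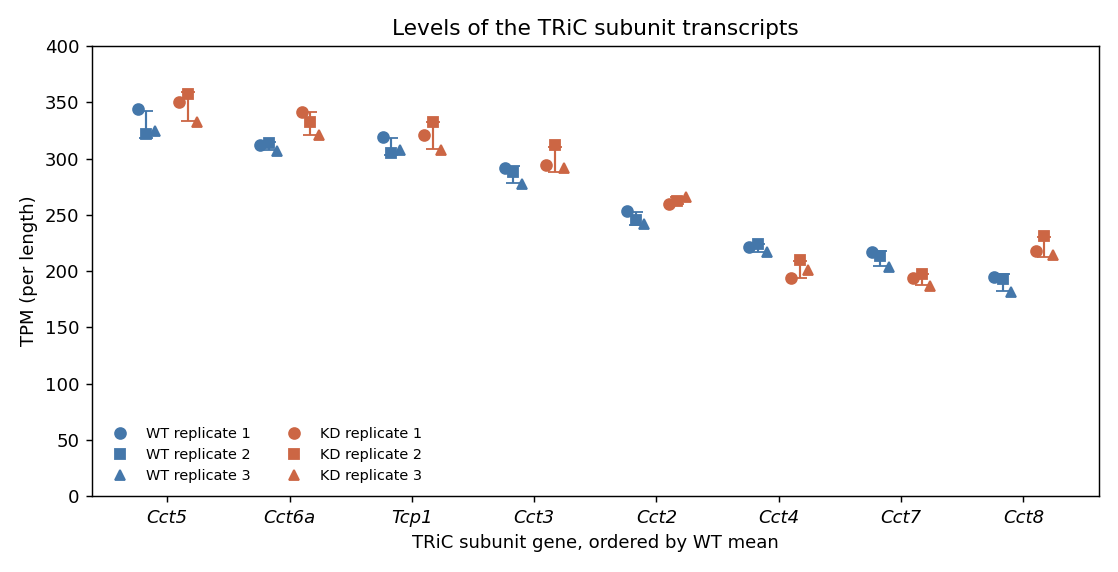
Level of each TRiC subunit transcript in TPM, a unit per transcript length, in the 3 WT (blue) and 3 KD (orange) libraries, with bars of 1 SD around the group mean and subunits ordered by their WT mean. Cct8 lies lowest in WT (181 to 195 TPM) and above Cct4 and Cct7 in KD (214 to 231 TPM).

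As a share of the summed TPM of the 8 subunits, of which each would hold 12.5% if levels were equal, Cct8 went from 9.02% ± 0.201 in WT to 10.2% ± 0.158 in KD (SD, n = 3 libraries per group). Cct4 went from 10.5% ± 0.192 to 9.28% ± 0.291. Cct7 held 10.1%, 10.1% and 9.88% in WT and 8.92%, 8.83% and 8.82% in KD. For these 3 subunits the shares did not overlap between the groups, and for the other 5 they did. The ratio between subunits of the same library removes what the library scaling adds. Cct8 over Cct7, a pair picked after their values were seen, was 0.898, 0.908 and 0.890 in WT replicates 1, 2 and 3, against 1.13, 1.17 and 1.15 in the KD replicates. The libraries of each group were thus close to one another and the groups did not overlap, with a log2 difference of 0.35. Cct8 over Cct4, also picked after its values were seen, gave the same log2 difference of 0.35, from 0.836 to 0.883 in WT and from 1.06 to 1.12 in KD. Cct7 over Cct4 was 0.958 ± 0.0228 in WT and 0.956 ± 0.0366 in KD (SD, n = 3 libraries per group), so the 2 transcripts that fell kept their ratio within the spread of the libraries.

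**Figure D4:**
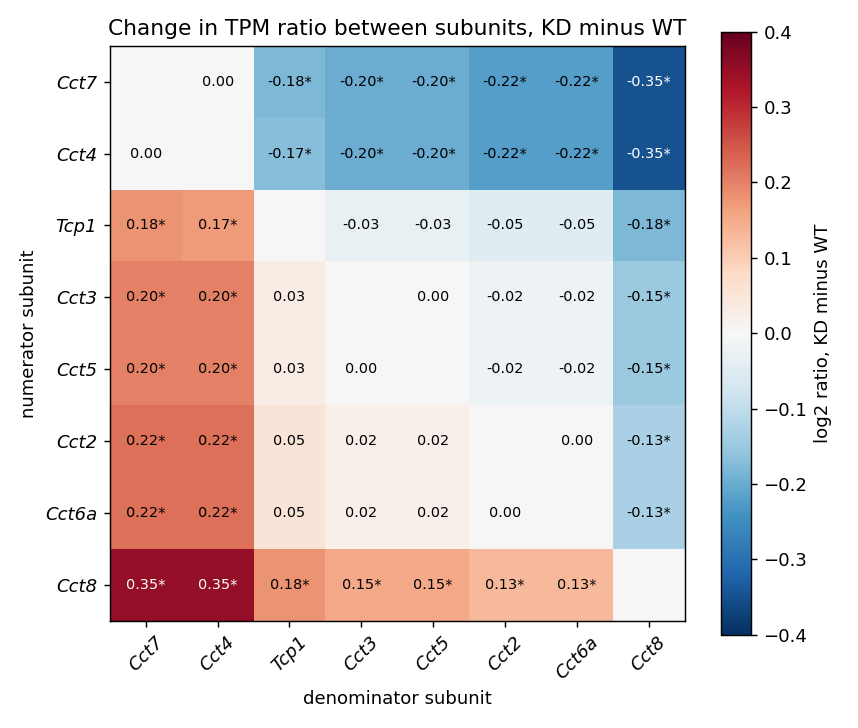
Change in the TPM ratio between each pair of TRiC subunits, as the log2 ratio in KD minus that in WT, with the row as numerator and the column as denominator; an asterisk marks pairs whose KD and WT libraries do not overlap. The largest value is 0.35, for Cct8 over Cct7 and over Cct4, and the pairs among Tcp1, Cct2, Cct3, Cct5 and Cct6a change by at most 0.05.

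Over the 28 pairs of subunits, the ratio overlapped between the groups in 11 and did not in 17. The 5 subunits that did not pass the threshold make 10 pairs, and in all 10 the ratio overlapped, with a largest log2 change of 0.05. Of the 18 pairs with Cct4, Cct7 or Cct8, the ratio overlapped in 1, Cct7 over Cct4. This follows in part from the choice of the 3 subunits by their own fold changes and is a description. The pairs share genes and are not independent, and the share over other pairs of genes was not computed. Of single genes tested, 41.6% did not overlap in CPM.

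The tissue-restricted paralog Cct6b, known from testis, had 3, 0 and 3 counts in WT and 4, 3 and 7 counts in KD and was below the filter. The zeta subunit in these cells was thus represented almost entirely by Cct6a. The genes whose profile was most like the mean of the subunits were sought by the root mean square difference of centred log2 CPM over the 6 libraries, among 8354 other genes with a mean of at least 20 CPM. The closest were Vps35 (0.0129), Ik (0.0135), Copb2 (0.0146), Ube2n (0.0176) and Pank3 (0.0179). Tcp1 (0.0194) and Cct3 (0.0202) were about as close to that mean, while Cct4 (0.0889), Cct7 (0.0869) and Cct8 (0.0926) were farther from it and would rank 3091, 2973 and 3324 among these genes. The mean includes each subunit itself and was nearly flat, between -0.05 and 0.04 on the log2 scale. Closeness to it thus largely restates how little a gene changed.

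Among the partners of the complex, changes went in both directions. The 8 lists of cofactors, substrates and other chaperones hold 96 genes, of which 91 were tested, and 11 were higher and 11 lower, or 24.2% against 24.0% of all genes. With the replicate number as a block 16 were higher and 23 lower, where 36.6% of all genes passed. Of the 6 prefoldin genes 1 fell and 0 rose, and with the block 1 fell and 1 rose. Pfdn5 was at 141, 138 and 137 CPM in WT and at 116, 118 and 122 CPM in KD, without overlap (log2 fold change -0.23, SE 0.05, adjusted P = 0.00863, edgeR). Of the 5 genes of phosducin-like proteins and other TRiC cofactors 0 passed by edgeR without the block, DESeq2 or limma-voom, with 1 gene at an unadjusted p under 0.05 (Txndc9, named after its value was seen), and their median log2 fold change was 0.14. With the replicate block 1 of them passed as higher (Nxn, log2 fold change 0.20, adjusted P = 0.0429, edgeR). Of the 7 tubulin folding cofactors, Tbcb, which binds alpha-tubulin, and Tbcd, which acts on beta-tubulin, fell by 0.21 and 0.17 on the log2 scale (adjusted P of 0.0346 and 0.0460, edgeR), while Tbce, which opens the tubulin pair together with Tbcb, rose by 0.20 (adjusted P = 0.0443, edgeR). These calls depend on the setting. Over the 16 alternatives given at the end, Tbcb passed in 11, Tbcd in 5 and Tbce in 6. Of the 7 genes, DESeq2 called 1 and limma-voom 2.

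Among the substrates, 1 of the 4 actin genes tested fell and 0 rose, and with the replicate block 2 fell. Actb, beta-actin, was at 1733, 1892 and 1857 CPM in WT and at 1546, 1542 and 1523 CPM in KD. All KD libraries were below all WT libraries, and the log2 fold change was -0.25 (SE 0.04, adjusted P = 0.00529, edgeR). Actg1, gamma-actin, was at 4338, 4571 and 4382 CPM in WT and at 4201, 4490 and 4492 CPM in KD, with overlap and a log2 fold change of -0.01 (adjusted P = 0.87, edgeR). Of the 15 tubulin genes tested 1 fell and 0 rose, although 12 of the 15 log2 fold changes were below 0. The gene that fell was Tubg2, a gamma-tubulin of the microtubule nucleation complex, from 30.1 ± 0.821 to 20.9 ± 1.07 CPM (SD, n = 3 libraries per group), with a log2 fold change of -0.53 (adjusted P = 0.00157, edgeR). The main tubulins of young neurons, Tuba1a (-0.12, adjusted P = 0.245) and Tubb2b (-0.18, adjusted P = 0.0713), did not pass in edgeR, nor did Tubb5 (-0.12, adjusted P = 0.208), Tubb3 (-0.06, adjusted P = 0.699) and Tuba1b (-0.04, adjusted P = 0.593). With the replicate number as a block 7 tubulins passed as lower and 1 as higher, Tuba1a, Tubb2b and Tubb5 among the lower ones (adjusted P of 0.01, 0.00132 and 0.0246, edgeR). Of all genes tested, 24.0% passed without the block and 36.6% with it.

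Of the 25 WD-repeat and other reported substrates 7 rose and 3 fell, or 40% against 24.0% of all genes, the median being 0.01. With the replicate block 8 rose and 5 fell, where 36.6% of all genes passed. Gnb1, a G protein beta subunit folded with the help of TRiC, was at 430.5, 420.4 and 433 CPM in WT and at 576, 568 and 610.4 CPM in KD (log2 fold change 0.45, SE 0.04, adjusted P = 5.3e-04, edgeR). Gnb5, another beta subunit, went the other way, from 55.8, 54.9 and 49.4 CPM in WT to 34.9, 34.4 and 37.2 CPM in KD (-0.59, SE 0.07, adjusted P = 8.7e-04, edgeR). In neither gene did the groups overlap, and both changes were more than 2 times the size of those of the subunits. Vhl, the substrate receptor of a ubiquitin ligase, rose by 0.55 on the log2 scale, Wdr1, a cofactor of actin disassembly, by 0.26 and Strn3, a phosphatase scaffold, by 0.19 (adjusted P of 6.6e-04, 0.00891 and 0.0245, edgeR). Ppp2r2c, a regulatory subunit of protein phosphatase PP2A, fell by 0.28 on the log2 scale (adjusted P = 0.0263, edgeR).

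Other chaperones were set beside the subunits. Hspd1, the chaperonin of mitochondria, was at 194, 184 and 174 CPM in WT and at 152, 148 and 145 CPM in KD. It fell without overlap, by 0.31 on the log2 scale (SE 0.05, adjusted P = 0.00453, edgeR), while its partner Hspe1 was at -0.12 (adjusted P = 0.376, edgeR). Of the 5 tested chaperonin-like and mitochondrial chaperonin genes 1 fell, or 20% against 24.0% of all genes. Of 24 cytosolic heat-shock chaperone genes tested 3 rose and 2 fell, or 20.8%, which is near that share. With the replicate block 4 rose and 4 fell, where 36.6% of all genes passed. The constitutive Hsp90ab1 rose from 1839 ± 55.0 to 2207 ± 43.4 CPM (SD, n = 3 libraries per group; log2 fold change 0.26, adjusted P = 0.00299, edgeR), Hsp90aa1 rose by 0.13 and Dnaja2 by 0.17 (adjusted P of 0.0306 and 0.0321, edgeR). The kinase co-chaperone Cdc37 fell by 0.19 on the log2 scale and Hspa8, the constitutive heat-shock cognate, by 0.12 (adjusted P of 0.0294 and 0.048, edgeR). Over the 16 alternatives Hspd1 and Hsp90ab1 each passed in 15, Hsp90aa1 in 10, Dnaja2 and Cdc37 each in 9 and Hspa8 in 5.

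**Figure D5:**
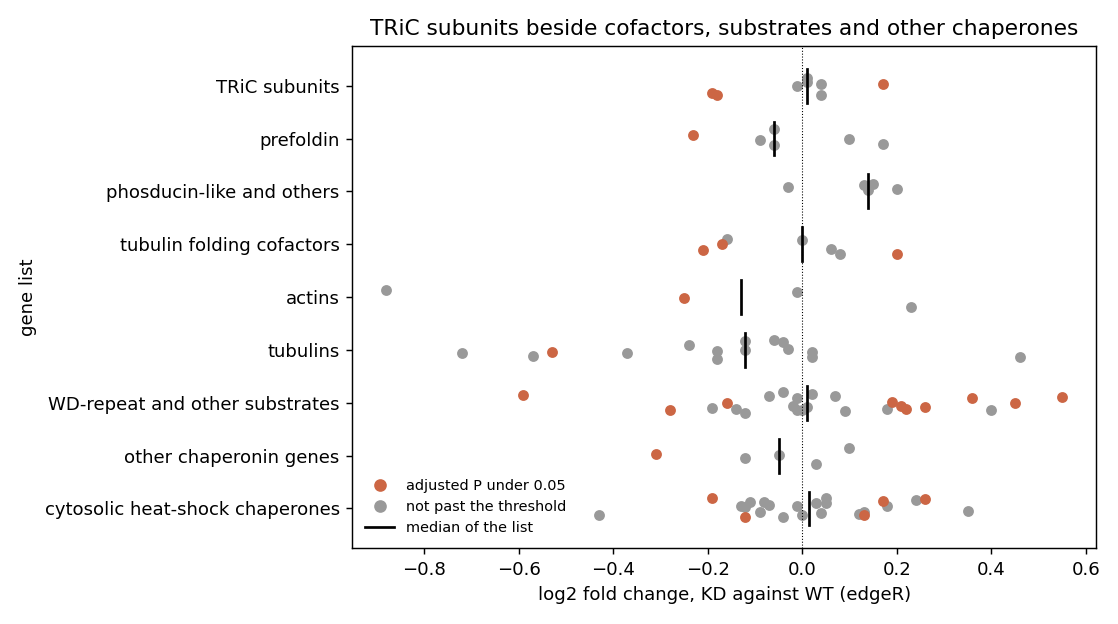
Log2 fold change in KD against WT (horizontal axis) of the genes tested in the TRiC subunit list and in each list of cofactors, substrates and other chaperones (rows); each dot is a gene, orange where its adjusted P was under 0.05, and a black bar marks the median of the list. List medians lie between -0.13 (actins) and 0.14 (phosducin-like and other cofactors), and the 8 subunits are spread less widely than the tubulins or the WD-repeat substrates.

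Markers of other cell types and states were read beside these values. Of all genes tested, 24.0% passed in edgeR without the block. The share was 76.9% for proliferation, 25% for radial glia, 22.2% for neuron, 28.6% for oligodendrocyte lineage and 12.5% for GABAergic lineage markers. Of 13 proliferation markers, Mcm7, Pcna and Mki67 among them, 10 rose and 0 fell by edgeR, with a summed level of 449.7 to 489 TPM in WT and 616 to 781 TPM in KD. All 5 intermediate progenitor markers tested (Insm1, Neurog2, Neurod1, Eomes and Btg2) rose, from a sum of 54.5 to 73.3 TPM in WT to 124 to 149.6 TPM in KD, without overlap. Radial glia markers summed to 3068 to 3435 TPM in WT and 3486 to 3771 TPM in KD (2 of 8 rose, Pax6 and Hes1), and neuron markers to 2718 to 3378 and 2993 to 3515 TPM (2 of 9 rose, Dcx and Neurod2). Fabp7 (WT mean 2582 TPM) made up most of the radial glia sum and Tubb3 (WT mean 1798 TPM) most of the neuron sum. Neither of these genes passed (adjusted P of 0.601 and 0.699, edgeR). Oligodendrocyte lineage markers summed to 326 to 432 TPM in WT and 280.0 to 349.8 TPM in KD (2 of 7 fell, Cspg4 and Olig1). GABAergic lineage markers gave sums of 558 to 848 and 584 to 901 TPM (1 of 8 rose, Dlx2), and 0 of 5 astrocyte markers passed in edgeR, DESeq2 or limma-voom or had an unadjusted p under 0.05, with sums of 97.9 to 109.6 and 95.7 to 110.0 TPM. Of the tested microglia (1), endothelial (3), pericyte and fibroblast (3) and erythroid (1) markers, 1 pericyte and fibroblast marker rose (Pdgfrb). With the replicate block more of these markers passed in edgeR, where 36.6% of all genes did. All 13 proliferation, 4 of 8 radial glia (also Sox2 and Vim) and 5 of 9 neuron markers (also Neurod6, Tbr1 and Bcl11b) were then higher, and 4 of 7 oligodendrocyte lineage markers (also Olig2 and Sox10) were lower. Of the 8 GABAergic lineage markers 2 were then higher (Dlx2 and Dlx1) and 2 lower (Gad1 and Slc32a1). No listed marker in the table was at 0 in every library. The part of these marker differences in the levels of Cct4, Cct7 and Cct8 was not tested.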

How the data were processed

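Messenger RNA of 3 WT and 3 KD libraries was sequenced on a DNBSEQ platform. For each gene the authors deposited estimated counts and TPM, and the submitters' processing notes name HISAT2 2.2.1, Bowtie2 2.4.5, RSEM 1.3.1 and the build GRCm38 (mm10). The gene annotation and the strandedness of counting are not given in the sources used here. The file also holds 12 further value columns, FPKM per library and group means, which were not used. Per the methods the replicates were independent experiments.

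Estimated counts were rounded and tested with edgeR 4.0.16 (R 4.3.3; quasi-likelihood F-test, TMM scaling, filterByExpr with a minimum count of 10), with Benjamini-Hochberg adjustment over 13669 of 17920 genes and a threshold of 0.05. The SE of a log2 fold change is its size divided by the square root of F, and the 95% intervals are approximate. Libraries held 16294635 to 16497505 estimated counts. Ratios and shares used TPM (SciPy 1.17.1). Alternatives used DESeq2 1.42.0, limma 3.58.1 (also on log2 of TPM plus 1), other scalings and filters, left-out libraries, and the replicate number as a block. The numbers paired the libraries: deviations from the group means correlated at 0.351, 0.32 and 0.178 over genes for equal numbers and between -0.276 and -0.018 for unequal ones. The main fit and the fits with libraries left out do not use this pairing.

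All 8 members, Ybx1, Cct6b and 11 set substrates and chaperones are named, with up to 6 genes of each list that passed the threshold at a mean of 5 CPM or more (Hes1, below this, Txndc9 and the genes that passed with the block alone, except Tuba1a, Tubb2b and Tubb5, were added after their values were seen). Members and lists were chosen with earlier results of these data known.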

Additional observations from a re-analysis of the deposited data

How the results depend on the processing

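Over all genes, the replicate block gave 2539 higher and 2470 lower calls, an adjusted P of 0.01 gave 629 and 634, leaving out both replicate 2 libraries (chosen after seeing the data) gave 135 and 93, and limma on TPM gave 1072 lower calls. Leaving out 1 library gave 779 to 1612 higher and 797 to 1583 lower. Of the subunits, 0 were higher with upper quartile scaling, and 0 were higher and 0 lower without replicate 2 of both groups, at an adjusted P of 0.01 or at a fold change of at least 1.2, and 0 were lower on TPM. With 1 library left out, 0 to 0 were higher and 0 to 2 lower. The lists of cofactors, substrates and chaperones gave 2 higher and 0 lower without both replicate 2 libraries, 4 and 5 at an adjusted P of 0.01, 4 and 4 at a fold change of at least 1.2, 7 lower with total counts, 7 lower on TPM, 23 lower with the block, and 4 to 8 higher and 5 to 12 lower with 1 library left out. The replicate block changed no call of a subunit. It turned Tuba1a, Tubb2b and Tubb5 into lower calls and added the cofactor and marker calls given beside those lists.

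Cct4 was at -0.13 on TPM and at -0.18 without both replicate 2 libraries, Cct7 at -0.13 and -0.18, and Cct8 at 0.15 with upper quartile scaling and at 0.16 without both replicate 2 libraries, none of them past the threshold. With 1 library left out Cct4 lay between -0.20 and -0.15, Cct7 between -0.22 and -0.17 and Cct8 between 0.13 and 0.19. Their direction held under all 16 alternatives, and they passed in 9, 9 and 8 of them, with an adjusted P of 0.00881 to 0.191 for Cct4, 0.00606 to 0.196 for Cct7 and 0.0127 to 0.237 for Cct8. The median of the subunits was 0.07 on TPM, and the share of Cct7 changed by -1.36 points on CPM. Signs turned only for genes that did not pass. Tcp1 was at 0.01 with total counts, at 0.04 on TPM and from -0.03 to 0.01 with 1 library left out, Cct3 at -0.01 with upper quartile scaling and from -0.02 to 0.03, and Cct5 at -0.01 with upper quartile scaling, at -0.01 without both replicate 2 libraries and from -0.01 to 0.05. Actg1 was at 0.01 with total counts, at 0.04 on TPM and from -0.03 to 0.02, Tuba1b at 0.01 on TPM and from -0.06 to 0.01, Tubb3 from -0.14 to 0.03, and Hspe1 at 0.01 without both replicate 2 libraries. Of the 36 other named genes past the threshold, 6 stayed past it under all 16 alternatives and 16 lost it only without both replicate 2 libraries. The remaining 14 lost it under another alternative too. There were 0 sign changes among the 36. The cause of these differences was not tested, but leaving out libraries leaves fewer of them. Counting error of the subunits was 1.31% to 1.96% of a value, and the KD libraries of Cct7 (199.5 to 204 CPM) lay about that close to one another.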
